A study of Salix viminalis with 12 samples.

Results

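The genes described here act in the CBF pathway and in cold acclimation, the process by which plants gain frost tolerance at low but non-freezing temperatures. A list of 10 Arabidopsis genes was looked up in the annotation of the *Salix viminalis* root transcriptome. It comprised the regulators ICE1, HOS1 and CAMTA3, the transcription factor CBF2, the dehydrins ERD10 and COR47, the membrane proteins COR413-PM1 and RCI2A, the enzyme SFR2 and the translation factor LOS1. A contig, which is a coding sequence predicted on an assembled transcript, was assigned to a gene when its Arabidopsis code without the gene model suffix was that of the gene. Of the 10 genes, 9 were matched, out of 13764 Arabidopsis genes matched in all. The number of genes that could have been matched is unknown, so that 9 of 10 has no background. The genes were also chosen with earlier results of these data known. The 9 genes were matched by 139 contigs, 0.217% of the 64173 contigs with a code.

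The transcriptome was assembled from 12 root libraries, 3 from each of 4 groups of cuttings that all came from a single *S. viminalis* individual, so that the replicates are plants of 1 genotype. CT and CC plants grew in control soil, MT and MC plants in metal-polluted soil, and the second letter stands for temperate (T) or cold-acclimated (C). All plants grew under 16 h of light and 8 h of darkness. The polluted soil of MT and MC contained Cd (1.5 ppm), Cu (175 ppm), Ni (30 ppm) and Zn (500 ppm), and after 40 days CC and MC plants were moved to 7 °C by day and 5 °C by night for 4 weeks while the others stayed at 23 °C and 20 °C. The treatment labels of the samples give 4 °C and 22 °C instead. The table describes 1 assembly of all 12 libraries together, and 0 of its 5 columns hold a value per library. The numbers below are therefore numbers of contigs, which are no measure of transcript abundance, and they have no replicates. The depth of each library is unknown from this table, and CT, CC, MT and MC could not be compared for any gene. Among markers of the tissue, 7 of 8 root genes had a contig, with none for AT5G49270 (COBL9), but so did 3 of 4 leaf genes, so that the presence of a contig does not tell the tissues apart.

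In Arabidopsis, cold leads within hours to the transcription of the CBF genes, whose products bind a short promoter element and switch on genes of frost protection. ICE1 activates CBF genes, HOS1 marks ICE1 for degradation, and CAMTA transcription factors link calcium signals to the CBF promoters. The targets include dehydrins and other small hydrophilic or membrane proteins that protect membranes and proteins from the water loss that freezing brings. The sources used here held no nucleotide or protein sequence for these contigs, and none is shown.

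The genes were matched very unequally. LOS1 alone held 113 contigs, 81.3% of those on the listed genes, and the other 8 matched genes shared 26 contigs, with at most 7 on any of them. The median over the 10 genes was 2 contigs, compared with a median of 3 contigs (quartiles 2 and 5) over all matched genes. More than 1 contig was found for 7 of the 10 genes, or 77.8% of the 9 matched. The same held for 77.7% of all matched Arabidopsis genes, so that this share was at the background. ICE1, HOS1, CAMTA3 and LOS1 exceeded the median of all genes, whereas CBF2, the dehydrins, RCI2A and SFR2 were below it. The plot of contigs among all matched genes shows where each of them lay.

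**Figure D1:**
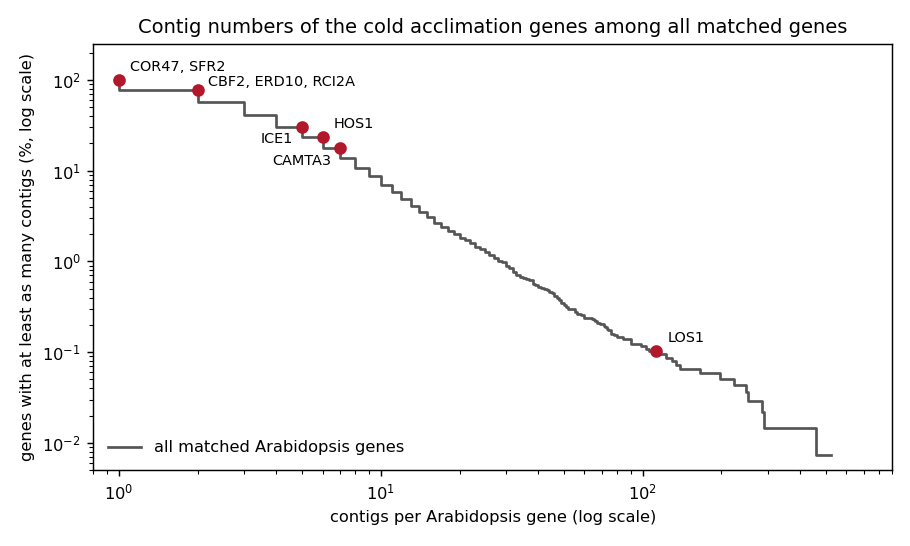
Share of all matched Arabidopsis genes (%, y axis, log scale) that had at least a given number of contigs (x axis, log scale), with the 9 matched genes of the list as red points. COR47 and SFR2 lay at the lowest possible value of 1 contig, CAMTA3 at 7 contigs, and LOS1 at 113 contigs.

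The names of the contigs show the assembly they came from. Names of Trinity contigs carry 1 of 2 version labels, which are called the first and the second Trinity assembly here. The remaining names were attributed by elimination to CLC Genomics Workbench, the other assembler that was used. Without LOS1, 11 contigs on the listed genes came from the first Trinity assembly, 9 contigs from the second and 6 contigs from CLC. Contigs of all 3 assemblies were found for 3 genes (ICE1, CAMTA3 and LOS1) and of 2 assemblies for 2 genes (HOS1 and CBF2). The contigs of 4 genes (ERD10, COR47, RCI2A and SFR2) came from 1 assembly. For COR47 and SFR2, with 1 contig each, no other result was possible. Shares among genes with similar numbers of contigs are given below for the genes other than LOS1. Similar sequences were merged across the assemblies, so that the name of a contig gives only the assembly of the sequence that was retained.

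**Figure D2:**
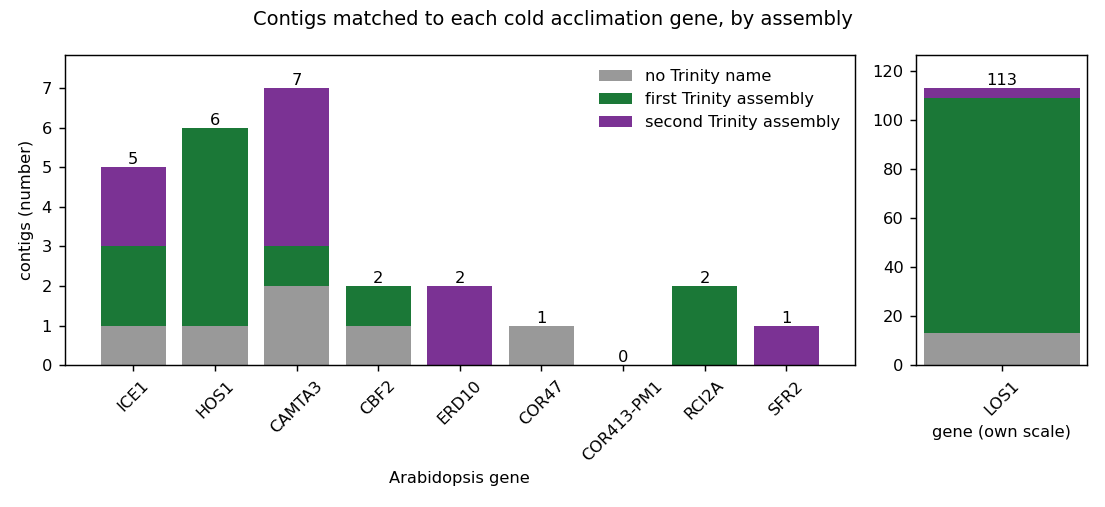
Number of contigs (y axis) for each listed gene (x axis), stacked by assembly of origin, with LOS1 in a panel of its own scale. ICE1, HOS1 and CAMTA3 had 5 to 7 contigs, the other genes on the left had 0 to 2, and the 113 contigs of LOS1 were mostly of the first Trinity assembly.

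The 3 listed regulators upstream of CBF were matched by several contigs each. AT3G26744 (ICE1), a bHLH transcription factor that also takes part in stomatal development under the name SCREAM, had 5 contigs, of which 1 came from CLC, 2 from the first and 2 from the second Trinity assembly. The 4 Trinity contigs of ICE1 lay in 3 Trinity genes, the sets of isoforms that the assembler ascribes to a locus. These belonged to 2 components, a component being all contigs of 1 Trinity assembly with the same DN number in their names. The cluster label that follows this number was not used. A component can thus span several of the read clusters from which Trinity genes are built. Genes that share a component need not share a read cluster. All 5 contigs carried the second gene model of ICE1 and none the first. A lack of the first model was found for 8.25% of all matched genes. The description of ICE1, a bHLH superfamily protein, was shared by 60 other genes, whose median was 3 contigs and of which 17 had more contigs than ICE1.

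AT2G39810 (HOS1), a RING ubiquitin ligase that targets ICE1 and in Arabidopsis also acts at the nuclear pore, had 6 contigs. Of these, 5 came from the first Trinity assembly, 1 from CLC and 0 from the second Trinity assembly. The 5 Trinity contigs all belonged to a single component (DN110948), in which 1 Trinity gene held 4 of them. Most contigs of HOS1 were thus isoforms of 1 Trinity gene. In the same component lay 1 contig of AT5G08680, described as an ATP synthase family protein. The number at the end of a contig name is the running number of its coding sequence among those predicted on the parent transcript. It does not give how many were predicted there. For 4 of the 6 HOS1 contigs the running number was above 1. For all contigs with a code this was the case in 11.8%. A property noticed only after the values were seen, 4 or more such contigs, was found for 25 of the 2318 genes with 5 to 7 contigs (1.08%).

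AT2G22300 (CAMTA3, also SR1), a calmodulin-binding transcription activator that binds the CBF2 promoter in Arabidopsis, had 7 contigs, the highest number below LOS1. Of these, 4 came from the second Trinity assembly, 2 from CLC and 1 from the first. CAMTA3 was matched through 2 gene models, the second in 5 contigs and the first in 2 contigs, whereas 6.80% of all matched genes had more than 1 model. Both contigs of the first model lay in the same Trinity gene of the second assembly (DN105391). This Trinity gene also held 2 of the 3 contigs of AT5G64220 (CAMTA2), a closely related activator. Contigs with the codes of both genes were thus taken as isoforms of the same locus. Among the 9206 Trinity genes with 2 or more coded contigs, 11.9% held contigs of more than 1 Arabidopsis gene. A shared Trinity gene means that the numbers for CAMTA3 and CAMTA2 are uncertain relative to each other. For genes with 5 to 7 contigs, 54.1% had contigs of all 3 assemblies, as ICE1 and CAMTA3 did and HOS1 did not. The median for such genes was 3 Trinity genes (quartiles 2 and 3), and ICE1 had 3, CAMTA3 had 3 and HOS1 had 2.

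AT4G25470 (CBF2, also DREB1C), one of the transcription factors at the centre of the pathway, had 2 contigs, 1 from CLC and 1 from the first Trinity assembly, both with the first gene model. Contigs from different assemblies were the rule among genes with 2 contigs, at 61.1%. The Trinity contig of CBF2 shared its component, but not its Trinity gene, with the only contig of AT3G12260, described as an LYR protein of Fe/S cluster biogenesis. Of 5 other CBF-type genes, AT5G51990 (CBF4, also DREB1D), which in Arabidopsis responds to drought and abscisic acid, had 4 contigs in CLC and the first Trinity assembly. There were 0 contigs each for CBF1, CBF3, DDF1 and DDF2. Each contig carried at most 1 code, that of an Arabidopsis gene, so that a code without contigs does not show that willow roots lacked a gene of this kind.

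The dehydrins, hydrophilic proteins that bind and stabilise membranes and proteins during dehydration, were matched by few contigs. AT1G20450 (ERD10, also LTI29) had 2 contigs, both of the second Trinity assembly and both isoforms of the same Trinity gene. This arrangement was found for 17.0% of genes with 2 contigs. AT1G20440 (COR47, also RD17), which lies beside ERD10 in Arabidopsis and is similar to it in sequence, had a single contig, from CLC. Of all genes with a single contig, 52.2% had it from CLC. As the sequences are similar, contigs of willow dehydrins could be split between the ERD10 and COR47 codes, and their numbers are uncertain individually. The 5 other dehydrins that were looked up (ERD14, LTI30, XERO1, RAB18 and HIRD11) had 0 contigs. A search of the descriptions, made after the codes, found AT2G21490, described as dehydrin LEA, with 2 contigs of the first Trinity assembly.

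The membrane proteins differed in how they were represented. AT3G05880 (RCI2A), a very small hydrophobic protein of the plasma membrane, had 2 contigs of the first Trinity assembly in 2 different components. Of genes with 2 contigs, 5.23% had them in different components of the same Trinity assembly, a category that follows what RCI2A itself showed. Around RCI2A, the 2 components also held 3 contigs of AT3G21690, described as a MATE efflux protein, and 1 of AT1G51060 (HTA10, a histone). They further held 1 contig of AT5G23760 and 3 without a code. Whether these contigs lay in the read clusters of RCI2A was not examined. The similar gene RCI2B had 0 contigs. AT2G15970 (COR413-PM1), a membrane-spanning protein of the plasma membrane, had 0 contigs and was the only listed gene without a match. Other genes of the same family were present, with 5 contigs for AT3G50830 (COR413-PM2), 3 contigs for AT1G29395 (COR413-IM1, of the inner chloroplast envelope) and 2 contigs for AT4G37220, described as a WCOR413 protein. AT1G29390 (COR413-IM2) had 0 contigs. The family was thus represented by 10 contigs in 3 genes, none of them under the code of COR413-PM1.

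AT3G06510 (SFR2), an enzyme of the outer chloroplast envelope that remodels galactolipids when cells freeze and is required for freezing tolerance in Arabidopsis, had a single contig of the second Trinity assembly. Of genes with 1 contig, 8.39% had it from that assembly, a category that follows what SFR2 itself showed. The description of SFR2, a glycosyl hydrolase, was shared by 13 other genes with a median of 3 contigs, and all 13 had more contigs than SFR2.

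AT1G56070 (LOS1) encodes elongation factor 2, which moves the ribosome along the mRNA. In Arabidopsis, a mutation in it blocks the induction of cold-responsive genes downstream of the CBF factors. The 113 contigs of LOS1 placed it at rank 14 of all matched genes, among 16 (0.116%) with 100 or more contigs. The contigs were spread over many Trinity groups. The 100 Trinity contigs lay in 86 Trinity genes and 63 components, and 54 of these components (85.7%) held a single LOS1 contig. The other extreme was formed by 4 components with 4 to 11 contigs each, which together held 35 contigs. The names in the largest of them (DN97456) carried more than 1 cluster label, so that it was not a single read cluster. Pieces of 1 locus can fall into separate components, and the Trinity assemblies are grouped separately, so that the number of willow loci behind these contigs is not known. On 17 of the 113 contigs the coding sequence number was above 1, and all 113 carried the first gene model. The other genes that shared the description of LOS1, AT1G06220 and AT3G22980, had 2 contigs and 1 contig. In components shared with LOS1 lay 5 contigs of AT3G09630, a ribosomal protein L4, 3 contigs of AT3G04240 (SEC), 1 contig each of AT5G02040 and AT5G08530, and 2 contigs without a code.

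The assembly of origin of LOS1 contigs was skewed. Of the 113 contigs, 96 came from the first Trinity assembly, 13 from CLC and 4 from the second Trinity assembly. The second assembly thus held 4.00% of the Trinity contigs of LOS1, against 28.8% of all Trinity contigs with a code. For the other 15 genes with 100 or more contigs this share lay between 13.2% and 56.3%, with a median of 46.8%. CLC contigs made up 11.5% of LOS1 contigs and between 14.6% and 33.6% for the other 15 genes. LOS1 was therefore the lowest of the 16 in both shares, a comparison chosen after the values were seen and given without a test. On average, a component held 1.59 LOS1 contigs, and 1.21 to 3.20 contigs of the other genes, of which only 1 was below LOS1. Next above LOS1 in the share of the second assembly came AT4G12680 at 13.2% and the heat shock genes AT5G52640 at 16.2%, AT3G12580 at 18.8% and AT5G56000 at 21.2%.

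**Figure D3:**
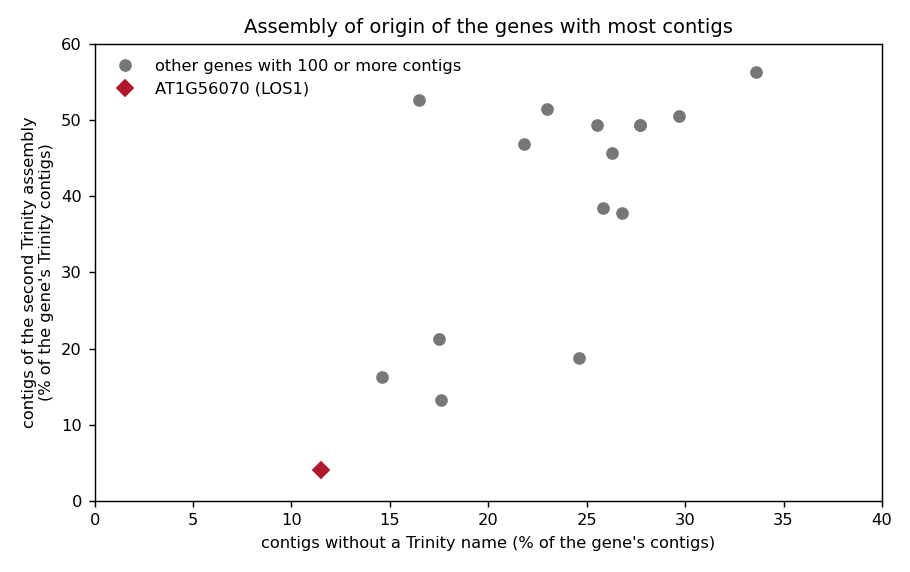
Assembly of origin of the 16 genes with 100 or more contigs, as the share of contigs without a Trinity name (%, x axis) and the share of the second Trinity assembly among Trinity contigs (%, y axis). Each point is a gene (the disease resistance genes AT3G14470 and AT5G17680 coincide at 27.7% and 49.4%), and LOS1 (red diamond) lies at 11.5% and 4.00%, below the other 15 genes on both axes.

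A further 48 genes of the pathway and of cold acclimation, listed by role, were looked up in the same way. Of these, 28 had a contig, with a median of 6 contigs among those matched, and 20 had none. The number of Arabidopsis genes that could have been matched is not in the table, so that neither this share nor those of the roles could be read against a background. Matches were unevenly spread over the roles, as the plot by role shows. Other regulators, which act on CBF genes, with ICE1 or at the targets of CBF, were matched in 6 of 8 cases. They included AT5G60410 (SIZ1, a SUMO ligase that stabilises ICE1) with 20 contigs, AT4G33950 (OST1, a kinase that phosphorylates ICE1) with 12 contigs and AT4G04920 (SFR6, a Mediator subunit that acts downstream of the CBF factors, at their targets) with 10 contigs. There were 9 contigs for AT1G67310 (CAMTA4) and 7 contigs for AT4G16150 (CAMTA5), whereas ICE2 and CAMTA1 had 0.

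The negative regulators of the pathway were all matched, 6 of 6. AT1G16670 (CRPK1, a plasma membrane kinase) had 7 contigs, AT3G23250 (MYB15, a repressor of CBF genes) had 6 contigs, and AT3G20770 (EIN3, of ethylene signalling) and AT5G67320 (HOS15, a WD-40 repeat protein) had 5 contigs each. AT1G09530 (PIF3, a phytochrome-interacting factor) had 4 contigs and AT5G59820 (ZAT12, a zinc finger protein) a single contig. Kinases of the cold signal were likewise matched in 6 of 6 cases. AT4G08500 (MEKK1), which starts a MAP kinase cascade, stood out with 78 contigs at rank 22 of all matched genes. Unlike LOS1, MEKK1 drew on the assemblies about evenly. It had 24 contigs from CLC, 26 contigs from the first and 28 contigs from the second Trinity assembly, in 22 components. For all contigs with a code, these shares were 25.8%, 52.9% and 21.4%, so that MEKK1 departed from the background as well. Further along this cascade, AT4G29810 (MKK2) had 3 contigs and AT4G01370 (MPK4) had 13 contigs. The kinases MPK3 and MPK6, which phosphorylate ICE1, had 8 contigs and 6 contigs, and AT5G54590 (CRLK1, a calcium-regulated receptor kinase) had 8 contigs.

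Proteins at the end of the pathway were matched in part. Matches for ERD10, COR47, RCI2A, COR413-PM2, COR413-IM1 and the dehydrin AT2G21490 are given above. Among other cold-regulated targets, AT5G52300 (RD29B) had 2 contigs, and there were 0 contigs for COR15A, COR15B, KIN1, KIN2, RD29A and GOLS3. Hence 1 of 7 of these targets had a match, as did 0 of the 5 further dehydrins. The table gives no lengths, so that these genes could not be set against others of the same coding length, and a code at 0 contigs says nothing of the willow gene. Other loci of freezing tolerance were matched in 4 of 4 cases. These were AT2G36530 (LOS2, an enolase) with 17 contigs, AT3G55990 (ESK1, of xylan acetylation) with 12 contigs, AT5G63980 (FRY1, a phosphatase) with 6 contigs and AT3G53110 (LOS4, an RNA helicase of mRNA export) with 3 contigs. Of the RNA-binding proteins, AT4G38680 (CSP2, a cold shock domain protein) and AT2G21660 (GRP7, a glycine-rich protein) had 3 contigs each and CSP3 had 0. The genes of a role were picked by knowledge of Arabidopsis, with earlier results of these data known. They are not a sample, and differences between roles were not tested.

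**Figure D4:**
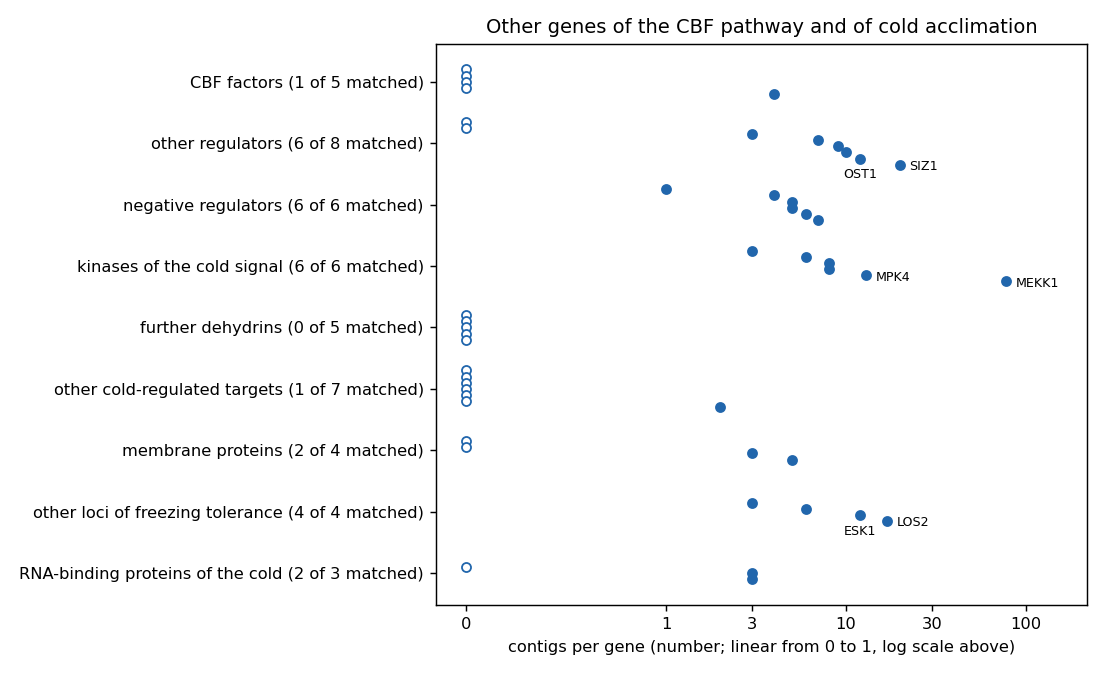
Contigs of each of 48 further genes (x axis, linear from 0 to 1 and log scale above) by role (y axis), with open points at 0 contigs. All 6 negative regulators, 6 kinases and 4 loci of freezing tolerance had a contig, as did 0 of 5 further dehydrins and 1 of 7 other cold-regulated targets, and MEKK1 had the most with 78. Left out of the plot are the dehydrins ERD10 (2 contigs), COR47 (1 contig) and AT2G21490 (2 contigs), and the membrane protein RCI2A (2 contigs).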

How the data were processed

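Roots from 12 libraries in 4 groups were sequenced and assembled together. The authors trimmed the reads, ran CLC Genomics Workbench and Trinity, and reduced the merged result with cd-hit-est and TransDecoder. Annotation came from BLAST against the *S. purpurea* transcriptome. The deposited table holds names and text only, in 5 columns. It has 0 columns with a value per sample, so no group comparison and no test was made, and depth and precision are unknown from it.

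Contigs were counted per Arabidopsis gene after removal of the model suffix. The names of contigs gave the assembly, the component (from the DN number alone) and the Trinity gene. The genes named were the 10 listed ones, the 48 genes of the role list, genes sharing a component with a listed gene and genes sharing its description. Relatives found by description and genes with 100 or more contigs were added after the values were seen. Members and lists were chosen with earlier results of these data known. Counting of contigs and of Trinity genes was tested on simulated data, whereas counting of components was not. Alternatives were other units of counting, single assemblies, the first gene model, a search by name and leaving out LOS1. Python (v. 3.11.15), pandas (v. 2.3.3) and matplotlib (v. 3.10.9) were used.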

Additional observations from a re-analysis of the deposited data

How the results depend on the processing

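Counting parent transcripts, Trinity genes or components, or only first gene models, left the 4 summary numbers within 1.5 times, with 93 to 139 contigs on the listed genes, and the search by name gave 148. Single assemblies gave fewer by construction. The second Trinity assembly gave 13 contigs, 4 genes with more than 1 contig, a median of 0.5 and 16 matched pathway genes. CLC gave 19 contigs, 2 genes with more than 1 contig and a median of 1. The first Trinity assembly gave 4 genes with more than 1 contig and a median of 1. Without LOS1, 26 contigs were left. No paired analysis was possible because none of the columns has values for single samples.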

Other observations

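A search for cold, freezing or low temperature in the descriptions, made after the other values were seen, found 11 genes with 53 contigs. Of these, 5 were in neither list. AT4G36020 (CSDP1), a cold shock domain protein, had 11 contigs in 7 components, and AT5G42900 (COR27), which in Arabidopsis is regulated by cold and by the circadian clock, had 9 contigs, of which 7 came from the first Trinity assembly. AT1G09070 (SRC2) had 4 contigs, AT4G39260 (GRP8), a relative of GRP7, had 3 contigs, and AT4G37220 had 2 contigs. These are numbers of contigs in the whole assembly and carry no information on cold or metals.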
